A study of Mus musculus with 29 samples.

Results

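The stroke response of NSG mice was compared with that of Rag2-/- mice, gene by gene, as a difference of 2 differences: stroked minus non-stroked NSG mice, minus stroked minus non-stroked Rag2-/- mice. A positive log2 difference therefore means that a transcript lay further above its own non-stroked level, or less far below it, in NSG than in Rag2-/- mice. The 13 of 29 samples that enter it were chosen by the genotype (NSG or RAG) and treatment (Stroke or Ctrl) in their labels, and all carry the title prefix Imm2. They are 3 stroked NSG, 4 non-stroked NSG, 3 stroked Rag2-/- and 3 non-stroked Rag2-/- brain samples.

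The study induced a photothrombotic stroke, in which light closes the vessels of the sensorimotor cortex after a dye has been injected, and sequenced polyA RNA of brain tissue 21 days later. NSG mice have a NOD background, carry the scid change in Prkdc and lack functional Il2rg, and so form no mature T, B and NK cells. Rag2-/- mice have a C57BL/6 background, lack Rag2 and form no mature T and B cells, but keep NK cells. Both groups of stroked mice thus lack adaptive immunity, and the strains differ in NK cells, in cytokine signalling through the common gamma chain and in the whole genetic background, which cannot be told apart here. Mice of both sexes were 3 months old according to the methods of the study. Control samples are called non-stroked here, since the sources describe them both as contralesional tissue and as tissue of naïve mice.

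The common gamma chain, encoded by Il2rg, is the shared signalling subunit of the receptors for IL-2, IL-4, IL-7, IL-9, IL-15 and IL-21, and NK cells need IL-15 acting through it to develop. Immediate early genes, to which Fos, Arc and Nr4a1 belong, are transcribed within minutes of neuronal firing or growth factor signals without new protein synthesis, and many of their products are transcription factors or phosphatases that end the signal. In cortex their level follows the recent activity of neurons. Weeks after a stroke the tissue around the lesion holds activated microglia, infiltrated macrophages and scar-forming astrocytes.

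Total counts ran from 32507506 to 41093219 per sample, with 25746 genes listed, of which 22092 had a count in at least 1 of the 29 samples. Rag2 had 0 counts in all 13 samples, and B230118H07Rik, whose span overlaps Rag2 on the opposite strand, had 504 to 1241 counts in NSG and 0 to 4 counts in Rag2-/- samples. The first principal component separated stroked from non-stroked samples (40.5% of variance) and the second separated the strains (34.9%). Summed transcripts of 43 neuron genes lay between 14940 and 20590 CPM (the count scaled to library size) in every sample. Ddx3y, a gene of chromosome Y, marked an unequal share of males: it lay at 49.2 to 53.1 CPM in all 4 non-stroked NSG samples but was at 0 in stroked NSG samples 1 and 2, at 0.0566 and 0 CPM in non-stroked Rag2-/- samples 1 and 2, and at 0 in stroked Rag2-/- sample 1. The titles of stroked mice carry the letter f or m, and the 3 samples with an f are the 3 stroked ones without Ddx3y. The sum of 10 choroid plexus genes, which mark the tissue that secretes cerebrospinal fluid in the ventricles, was above 300 CPM in non-stroked NSG samples 1, 2 and 3, stroked NSG sample 3 and stroked Rag2-/- sample 1, and below 40 CPM in the other 8 samples. As each sample is a piece of tissue, fewer cells of a type and less RNA per cell cannot be told apart. Nothing in the labels says how the animals of a group are related, so the p-values measure the spread between these samples.

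At a fold minimum, more genes were called higher than lower after stroke in both strains, and most calls of each strain were shared. A gene is called changed at a Benjamini-Hochberg adjusted p below 0.05 in edgeR's quasi-likelihood test together with an absolute log2 fold change above 1. Of 17031 genes tested, 933 were called in NSG mice (853 higher and 80 lower, 5.48% of genes) and 737 in Rag2-/- mice (718 higher and 19 lower, 4.33%). Of these, 505 were called in both, which is 54.1% of the NSG calls and 68.5% of the Rag2-/- calls, and none of the 505 had opposite signs. At the adjusted p alone, with no minimum fold, 2212 genes were higher and 1514 lower in NSG mice, and 1142 higher and 260 lower in Rag2-/- mice. Without the 5 samples above 100 CPM of Ttr, a choroid plexus gene, the NSG calls were 329 higher and 163 lower.

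The difference between the responses itself was called for 0 genes (0% of 17031), and the smallest adjusted p was 0.108. At an unadjusted p below 0.05 there were 1598 genes (9.38%), 718 higher and 880 lower in NSG mice. DESeq2, run on the same design, called 14 genes, 12 higher and 2 lower. The lower ones were Plin4 (log2 difference −2.72) and Ms4a15 (−20.4, SE 3.68), and so extreme a value is not read as the size of a change. The call count was also set by single samples: it was 21 without stroked NSG sample 3, 4 without non-stroked Rag2-/- sample 4, and 1 each without non-stroked NSG sample 1 or 2. Without stroked NSG sample 3 the stroked NSG samples left had 0 counts of Ddx3y, while all 4 non-stroked NSG samples had the gene. Sex and stroke cannot be told apart in NSG mice in that fit. The median standard error of the difference was 0.225 on the log2 scale, and for 11625 genes (68.3%) the 95% interval of the difference lay within 1 log2 unit of 0. For the 505 genes called in both strains this held for 93 (18.4%), so for most of the shared response these samples do not bound the difference that closely.

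The genes with the smallest p among the higher ones were mostly immediate early genes. A list of 38 such genes, 18 transcription factors and 20 effectors and feedback regulators, was followed as a whole, and all 38 were tested. The difference was positive for all 38 (37 under RLE scaling or DESeq2), with a median of 0.98 on the log2 scale against 0.01 over all genes tested, and 26 of 38 had an unadjusted p below 0.05 (12 of 18 transcription factors and 14 of 20 effectors). Over all genes 4.22% were higher at this unadjusted p. No member was called by edgeR, 8 were called by DESeq2, and the list was drawn up with earlier results of these data known.

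The median response of the list was 0.71 in NSG and −0.41 in Rag2-/- mice on the log2 scale. In NSG mice 7 of 38 members were called higher after stroke and 0 lower, where 5.01% of all genes were called higher and 0.47% lower. In Rag2-/- mice 8 of 38 were called lower and 2 higher, where 0.112% of all genes were called lower and 4.22% higher. The members that fell in Rag2-/- mice were Arc, Fos, Npas4, Egr1, Egr2, Nr4a1, Dusp1 and Ier2. Members that rose in NSG mice included Dusp5, Klf2, Ptgs2, Csrnp1 and Atf3. Ptgs2, the inducible cyclooxygenase, lay at 12.1, 32.9 and 9.0 CPM in stroked NSG samples and at 6.78 to 9.51 CPM in non-stroked ones, which overlapped. Without stroked NSG sample 2 the log2 difference of the responses was 0.22 for Ptgs2 and 0.04 for Atf3. The summed list gave 1505 to 2096 CPM in the 4 non-stroked NSG samples and 2387 to 2828 CPM in the 3 stroked ones, but 2644 to 4245 CPM in the 3 non-stroked Rag2-/- samples and 1678 to 1929 CPM in the 3 stroked ones. Neither strain showed overlap between its stroked and non-stroked samples in this sum.

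**Figure D1:**
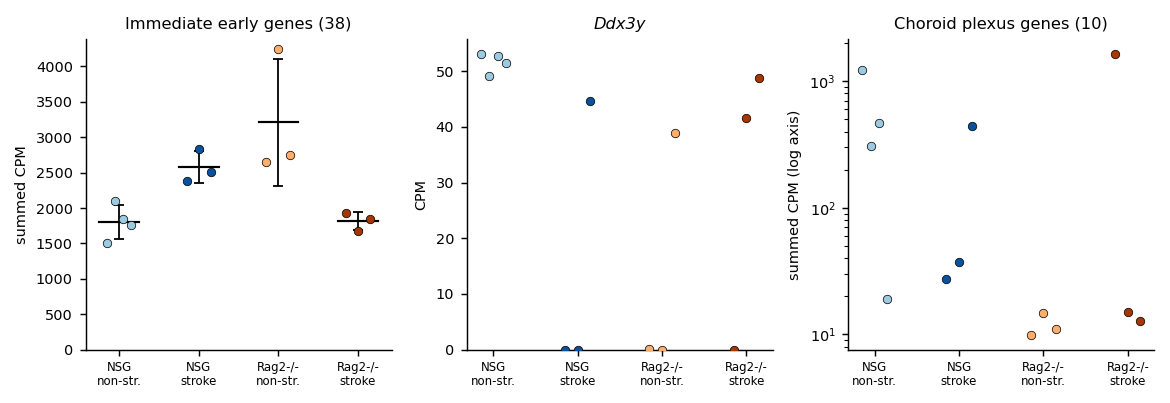
Summed CPM of the 38 immediate early genes, CPM of Ddx3y and summed CPM of 10 choroid plexus genes (log axis) in each of the 13 samples, one point per sample, with the mean and SD as lines in the first panel. The immediate early sum was higher in stroked than non-stroked NSG samples and lower in stroked than non-stroked Rag2-/- samples, while Ddx3y and the choroid plexus genes differed between single samples of the same group.

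Arc encodes a synaptic protein whose transcript travels to active dendrites, and its difference was among the largest of the list. In non-stroked NSG samples Arc lay at 116, 248, 157 and 112 CPM, and in stroked NSG samples at 310, 344 and 323 CPM. In non-stroked Rag2-/- samples it lay at 408, 844 and 302 CPM, and in stroked ones at 222, 80.3 and 149 CPM. Every stroked NSG sample was above every non-stroked NSG sample (an order that 13.6% of all genes had), and every stroked Rag2-/- sample was below every non-stroked Rag2-/- sample (16.9% of all genes). The log2 difference of the responses was 2.82 (SE 0.630, 95% interval 1.53 to 4.12, edgeR adjusted p = 0.181). The response was 1.04 in NSG mice (edgeR adjusted p = 0.0771) and −1.78 in Rag2-/- mice (edgeR adjusted p = 0.0179).

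Nr4a1, an orphan nuclear receptor, had the same order. It lay at 59.8, 109, 95.6 and 52.6 CPM in non-stroked and at 138, 168 and 148 CPM in stroked NSG samples. It lay at 158, 311 and 141 CPM in non-stroked and at 98.0, 64.6 and 90.2 CPM in stroked Rag2-/- samples. The log2 difference was 2.21 (SE 0.452, 95% interval 1.28 to 3.14, edgeR adjusted p = 0.138).

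Fos, a subunit of the transcription factor AP-1, was less cleanly separated in NSG mice. Its values were 9.54, 26.7, 31.4 and 11.5 CPM in non-stroked NSG samples and 41.1, 36.3 and 30.8 CPM in stroked ones, so that these overlapped. In Rag2-/- samples they were 28.1, 86.5 and 41.8 CPM without stroke and 15.7, 10.8 and 17.6 CPM with stroke, without overlap. The log2 difference was 2.69 (SE 0.640, 95% interval 1.37 to 4.01, edgeR adjusted p = 0.303).

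The feedback regulators behaved alike. Dusp1 and Dusp6 encode phosphatases that switch off MAP kinases, and Trib1 a pseudokinase that binds a ubiquitin ligase. Dusp6 lay at 37.4, 55.6, 37.6 and 37.0 CPM in non-stroked and 65.2, 75.9 and 59.2 CPM in stroked NSG samples, against 78.0, 110 and 64.0 CPM and 47.9, 44.4 and 55.5 CPM in Rag2-/- samples. The groups of each strain did not overlap, and its log2 difference was 1.44 (SE 0.274, 95% interval 0.88 to 2.0, edgeR adjusted p = 0.108). Dusp1 had a log2 difference of 2.21 and Trib1 of 1.78, both also without overlap in either strain. Among the other members with an unadjusted p below 0.05, the log2 difference was 2.98 for Egr2, 2.30 for Ier2, 2.04 for Btg2, 1.83 for Junb, 1.63 for Dusp5, 1.51 for Egr1, 1.49 for Csrnp1 and 1.48 for Klf2.

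Opposite movement without overlap in both strains was found for 7 of the 38 members, namely Arc, Nr4a1, Junb, Dusp1, Dusp6, Trib1 and Ier5. Over all genes tested 29 (0.17%) had this order. Only 2 members lay higher in stroke without overlap in both strains, 1 of them Atf3, a stress-induced transcription factor, with responses of 3.29 in NSG and 2.75 in Rag2-/- mice. Atf3 thus had a difference of 0.54 on the log2 scale, one of the smaller values of the list.

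**Figure D2:**
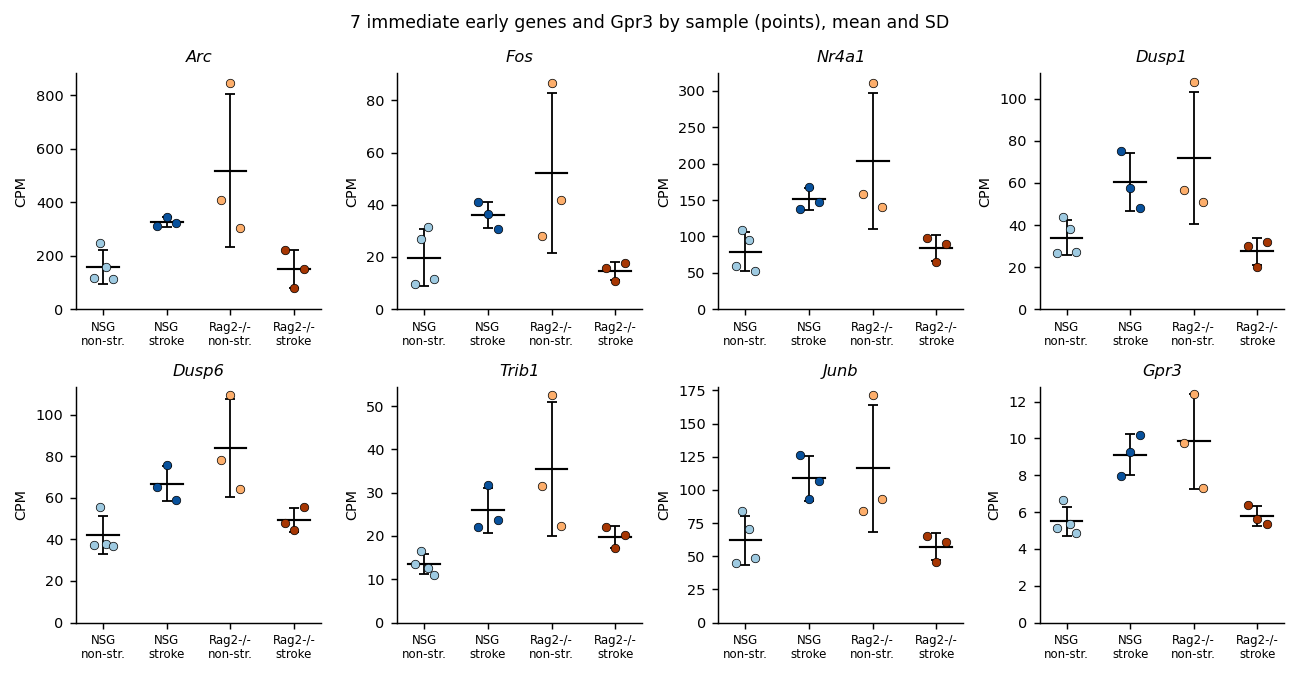
CPM of 7 immediate early genes and of Gpr3 in each of the 13 samples, one point per sample, with the group mean (long line) and SD (whiskers). For Arc the 3 stroked NSG samples sit between 310 and 344 CPM, above all 4 non-stroked NSG samples, while the 3 stroked Rag2-/- samples sit between 80.3 and 222 CPM, below all 3 non-stroked Rag2-/- samples.

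Much of the difference lay between the non-stroked groups. Non-stroked NSG samples were below non-stroked Rag2-/- samples with a median of −0.58 over the 38 members, and stroked NSG samples were above stroked Rag2-/- samples with a median of 0.56. Without stroke 6 of the 38 members were called lower in NSG than in Rag2-/- mice (1.36% of all genes were): Arc (log2 difference −1.71), Nr4a1 (−1.36), Trib1 (−1.39), Egr1 (−1.15), Dusp1 (−1.08) and Dusp6 (−1.0). With stroke only Dusp1 was called higher in NSG mice (log2 difference 1.14, edgeR adjusted p = 0.0402, where 1.29% of all genes were called higher). WT samples of the same fit, which are not part of the contrast, gave a mean of 525 ± 317 CPM for Arc without stroke and 177 ± 67.3 CPM with stroke (SD, n = 4 each), next to 518 ± 287 and 151 ± 71.0 CPM in Rag2-/- mice (SD, n = 3 each). Of the 4 stroked WT samples 2 carry the title prefix TF, while all 4 non-stroked WT samples carry Imm2, so the WT values cross title prefixes. The corresponding means in NSG mice were 158 ± 63.2 (SD, n = 4) and 326 ± 17.4 CPM (SD, n = 3). Strain background and non-stroked level cannot be told apart in this design.

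The non-stroked Rag2-/- sample 2 was the highest of the 13 in the immediate early sum. Without it 21 of 38 members had an unadjusted p below 0.05, the list median was 0.82 and the Arc difference was 2.27. Ddx3y moved with these groups, since all 4 non-stroked NSG samples had it and only 1 of 3 stroked NSG samples did. With Ddx3y as a covariate 21 of 38 members had an unadjusted p below 0.05 and 35 were positive. In that fit 17 of 42 neuron genes were also higher at this unadjusted p, and 0 were lower. The share of all genes at it, in this fit or without non-stroked Rag2-/- sample 2, is not given here. Over all alternatives 455 to 3217 genes had such a p, so these counts cannot be set against the 4.22% of the main fit. The 8 samples with Ddx3y alone include 1 stroked NSG and 1 non-stroked Rag2-/- sample. In them 36 members were positive and the median was 0.80, with 2.43 for Arc and 1.76 for Nr4a1.

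The promoters of 4 of these genes are shown because immediate early transcription is known to be driven in part by CREB, a factor that binds the cAMP response element. Each is the 250 bases before the RefSeq transcript start on GRCm38.p6, 5′ to 3′ on the strand of the gene, in lower case, with every match to the core of that element (TGACG, or CGTCA on the other strand) in capitals. Nr4a1 lies at chr15:101266596-101266845 on the plus strand, Dusp1 at chr17:26508473-26508722 on the minus strand, Fos at chr12:85473640-85473889 on the plus strand and Dusp6 at chr10:99262981-99263230 on the plus strand.
Nr4a1: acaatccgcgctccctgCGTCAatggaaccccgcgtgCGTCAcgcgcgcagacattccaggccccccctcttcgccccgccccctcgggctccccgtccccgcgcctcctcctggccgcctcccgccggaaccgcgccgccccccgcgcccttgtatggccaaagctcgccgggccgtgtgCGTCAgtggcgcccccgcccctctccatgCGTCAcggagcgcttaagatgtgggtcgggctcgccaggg
Dusp1: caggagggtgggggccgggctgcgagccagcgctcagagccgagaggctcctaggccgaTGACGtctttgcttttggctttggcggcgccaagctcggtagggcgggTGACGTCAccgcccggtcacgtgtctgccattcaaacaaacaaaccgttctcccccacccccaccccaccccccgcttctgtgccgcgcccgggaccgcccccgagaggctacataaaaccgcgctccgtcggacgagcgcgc
Fos: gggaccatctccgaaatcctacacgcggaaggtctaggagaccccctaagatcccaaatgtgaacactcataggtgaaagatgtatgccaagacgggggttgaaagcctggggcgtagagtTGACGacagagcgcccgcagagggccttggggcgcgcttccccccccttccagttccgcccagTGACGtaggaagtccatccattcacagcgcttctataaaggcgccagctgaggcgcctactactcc
Dusp6: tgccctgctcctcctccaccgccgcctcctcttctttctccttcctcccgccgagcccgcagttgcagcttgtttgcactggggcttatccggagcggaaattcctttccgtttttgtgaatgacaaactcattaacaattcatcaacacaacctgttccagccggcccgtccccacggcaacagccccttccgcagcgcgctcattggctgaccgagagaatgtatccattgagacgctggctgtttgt

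These windows held 4 core matches for Nr4a1, 3 for Dusp1, 2 for Fos and 0 for Dusp6. In Dusp1 a pair of cores overlaps in the full site TGACGTCA. RefSeq promoters were at hand for 30 of the 38 genes, 47 promoters in all, and 28 of these (59.6%) held the core against 17.8% of all 32851 promoters. The full site occurred in 3 of 47 (6.38%), among them those of Dusp1 and Btg2, against 1.55% of all. The CArG box, the element bound by serum response factor, occurred in 5 of 47 (10.6%) against 1.47%. Alternative starts of a gene count as separate promoters in these shares. The promoters with a CArG box were all of Egr2, with several starts, or Dusp5, so that share does not describe the list as a whole. A match is a description of letters in this window, and Dusp6, with none, had one of the smallest p-values of the list.

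The other genes among the 12 higher ones with the smallest p were not members of the list. Gpr3, a receptor that raises cAMP without an added ligand, had a log2 difference of 1.5 (edgeR adjusted p = 0.108) and no overlap in either strain. Col26a1, a collagen gene, had the smallest p of all genes (unadjusted p = 6.9e-06, log2 difference 1.36, SE 0.242, edgeR adjusted p = 0.108). It lay at 4.33, 3.0, 3.03 and 3.25 CPM in non-stroked and 5.26, 5.83 and 5.94 CPM in stroked NSG samples, and at 9.46, 9.85 and 8.48 CPM in non-stroked and 5.54, 6.43 and 6.07 CPM in stroked Rag2-/- samples. The stroked groups of the strains thus lay at similar levels and the non-stroked groups apart (log2 difference −1.45, edgeR adjusted p = 6.68e-07).

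Pmaip1 and Gadd45a, both targets of p53 that respond to cell stress, rose in NSG mice with little response in Rag2-/- mice. Pmaip1, which promotes apoptosis, lay at 2.58 to 4.06 CPM in non-stroked NSG and 2.61 to 3.46 CPM in all Rag2-/- samples, and at 10.3, 9.46 and 6.24 CPM in stroked NSG samples alone. It rose in NSG mice (log2 fold change 1.27, edgeR adjusted p = 8.77e-05), its response in Rag2-/- mice was 0.06, and the log2 difference was 1.22 (SE 0.280, edgeR adjusted p = 0.229). Gadd45a rose in NSG mice (1.31, edgeR adjusted p = 0.000144), with a response of −0.04 in Rag2-/- mice and a difference of 1.36 (edgeR adjusted p = 0.181). Unlike Pmaip1, it was not high in stroked NSG samples alone. It had 112 to 185 counts in non-stroked and 208 to 449 in stroked NSG samples. In Rag2-/- samples it had 234 to 353 counts without and 259 to 311 with stroke, so only the non-stroked NSG group lay apart.

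**Figure D3:**
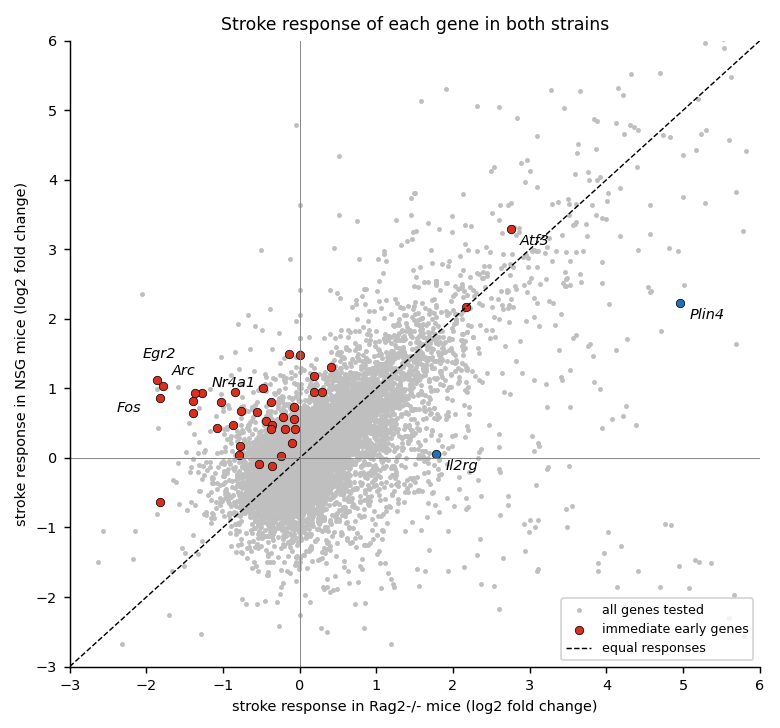
Stroke response of each gene in NSG mice (vertical axis, log2 fold change) against that in Rag2-/- mice (horizontal axis), with one grey point per gene, the 38 immediate early genes in red and a dashed line where the responses are equal. Axes run from −3 to 6 and leave out 49 genes. The immediate early genes lie on or above the dashed line, while Plin4 and Il2rg (blue) lie to its right.

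Among the 12 lower genes Plin4, which coats lipid droplets and is a target of glucocorticoids, had the smallest p. It lay at 0.813 to 1.13 CPM in non-stroked NSG and 0.453 to 1.33 CPM in non-stroked Rag2-/- samples. After stroke it reached 3.09, 5.24 and 5.45 CPM in NSG and 16.8, 35.8 and 25.3 CPM in Rag2-/- samples. It rose in both strains, by 2.23 in NSG and 4.96 in Rag2-/- mice on the log2 scale, and the difference was −2.73 (SE 0.685, 95% interval −4.14 to −1.32, edgeR adjusted p = 0.303). Plin4 was called lower in stroked NSG than in stroked Rag2-/- samples (−2.5, edgeR adjusted p = 0.00034), as were 1.47% of all genes. DESeq2 called the difference between the responses (−2.72, adjusted p = 0.0477).

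Fkbp5, a chaperone that dampens the glucocorticoid receptor and is induced by it, followed Plin4. It lay at 25.5 to 37.6 CPM in non-stroked and 39.9 to 51.1 CPM in stroked NSG samples, and at 23.7 to 25.8 CPM in non-stroked and 60.4 to 72.1 CPM in stroked Rag2-/- samples. Its log2 difference was −0.90 (95% interval −1.42 to −0.39, edgeR adjusted p = 0.437). The list of glucocorticoid-responsive genes as a whole did not share this, with a median of 0.01. Of its 13 members tested, which include Plin4 and Fkbp5, 3 were higher at an unadjusted p below 0.05 (4.22% of all genes were). The 2 lower ones were Plin4 and Fkbp5 themselves (5.17% of all genes were lower at it). In each strain 6 of the 13 were called higher after stroke, where 5.01% of all genes were in NSG and 4.22% in Rag2-/- mice. Ddit4, an inhibitor of mTOR signalling, was one of the 3 with a higher response in NSG mice, with a difference of 0.61.

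**Figure D4:**
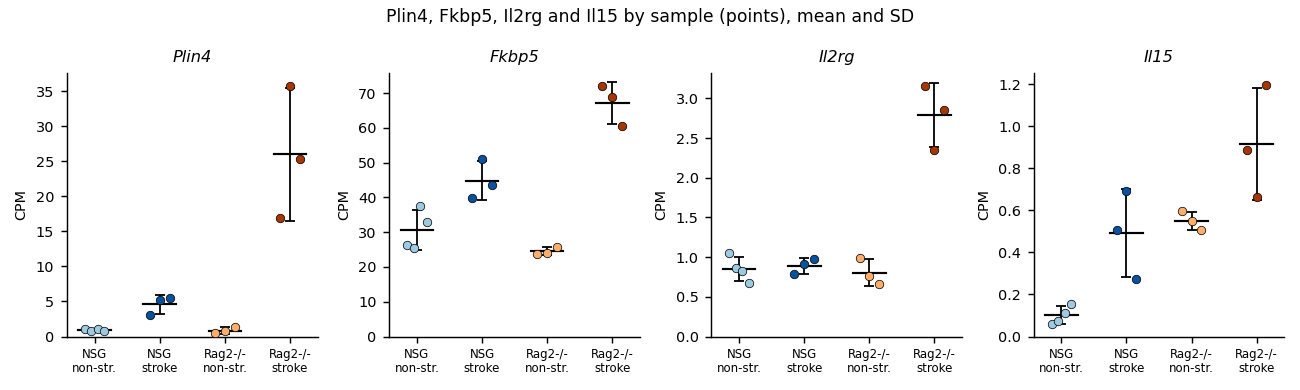
CPM of Plin4, Fkbp5, Il2rg and Il15 in each of the 13 samples, one point per sample, with the group mean (long line) and SD (whiskers). Plin4, Fkbp5 and Il2rg are highest in the 3 stroked Rag2-/- samples, and Il15 is lowest in the 4 non-stroked NSG samples, at 0.0585 to 0.155 CPM.

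The remaining lower genes included Htr2c, a serotonin receptor abundant in choroid plexus (log2 difference −2.11), Rsph4a, a part of the radial spokes of motile cilia (−1.89), Cfap57, a ciliary protein (−1.42), Sulf1, which trims heparan sulfate (−1.46), the kinase gene Nek10 (−1.59) and Lrrc9 (−1.65). Lrriq1 (−1.54), Lrrc74b (−1.28), BC005561 (−1.25), the kinase gene Rps6ka6 (−1.08) and Zfp879 (−1.05) completed the 12, and edgeR adjusted p ran from 0.303 to 0.469. Rsph4a lay at 6.96, 1.98, 6.80 and 3.28 CPM in non-stroked NSG samples, 2.53, 3.11 and 3.06 CPM in stroked NSG samples, 2.29, 1.85 and 2.41 CPM in non-stroked Rag2-/- samples, and 7.89, 3.24 and 3.71 CPM in stroked ones. Its 3 highest values were in non-stroked NSG samples 1 and 3 and stroked Rag2-/- sample 1, and the same 3 samples held the 3 highest values of Htr2c, Cfap57, Sulf1, Nek10 and Lrrc9. These are also the samples with the most Ttr, the main secreted product of choroid plexus, at 1060, 390 and 1398 CPM, and its part in the result was not tested.

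All 10 choroid plexus genes had a negative difference, 9 with an unadjusted p below 0.05 (5.17% of all genes were lower at it) and a median of −4.27. Their sum was 1229, 308, 465 and 19.1 CPM in non-stroked NSG, 27.4, 37.1 and 439 CPM in stroked NSG, 9.83, 14.7 and 11 CPM in non-stroked Rag2-/-, and 1650, 15 and 12.7 CPM in stroked Rag2-/- samples. The groups overlapped, and the values followed single samples. Without stroked Rag2-/- sample 1 the median was −1.42 and 0 of 10 passed, and without the 5 samples above 100 CPM of Ttr it was 0.85, with 1 non-stroked NSG sample left. In that last setting Rsph4a was at −0.91, Nek10 at −0.81, Cfap57 at −0.75, Sulf1 at −1.05 and Htr2c at −1.99. Immediate early genes had a median of 1.44 there, with 36 of 38 positive.

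Il2rg itself, on chromosome X, told the strains apart after stroke. It lay at 1.05, 0.863, 0.822 and 0.681 CPM in non-stroked NSG samples and at 0.784, 0.914 and 0.979 CPM in stroked ones. In Rag2-/- samples it lay at 0.991, 0.760 and 0.667 CPM without stroke and at 3.16, 2.36 and 2.85 CPM with stroke. It rose in Rag2-/- mice (log2 fold change 1.78, edgeR adjusted p = 0.00403), the NSG response was 0.06 (edgeR adjusted p = 0.926), and the difference was −1.72 (SE 0.529, 95% interval −2.81 to −0.63, edgeR adjusted p = 0.469). Stroked NSG mice were called lower than stroked Rag2-/- mice (−1.64, edgeR adjusted p = 0.0059). The change in the Il2rg locus of NSG mice is meant to end its function, and whether it alters the level of the transcript was not tested. Prkdc, the gene with the scid change, lay at 16.7 to 36.5 CPM in all 13 samples.

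Of the 26 genes of common gamma chain signalling 21 passed the filter on low counts, with a median difference of −0.10. Among the 7 receptor chains tested 6 were negative, and Il2rg and Il2rb, the IL-2 and IL-15 receptor beta chain (−1.85, values of 0.127 to 1.07 CPM), had an unadjusted p below 0.05. The 6 signal transducers had a median of −0.02 and none with such a p. Of the ligands only 2 passed the filter. Il15 had 2 to 5 counts in each non-stroked NSG sample and 9 to 28 in each stroked one, against 16 to 21 and 24 to 39 counts in Rag2-/- samples. It rose in NSG mice (log2 fold change 2.27, edgeR adjusted p = 0.000828), with a response of 0.73 in Rag2-/- mice (edgeR adjusted p = 0.261) and a difference of 1.55 (95% interval 0.36 to 2.73, edgeR adjusted p = 0.498). The non-stroked groups differed already (−2.42, edgeR adjusted p = 0.000436), and after stroke NSG values of 0.275 to 0.692 CPM overlapped the Rag2-/- values of 0.665 to 1.2 CPM. In the samples with Ddx3y alone the Il15 difference was 0.57.

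Transcripts of NK and innate lymphoid cells were near the limit of these libraries. Of 27 listed genes 11 passed the filter, which they could do through the stroked Rag2-/- samples alone, so their values are given only as counts. Ncr1, an activating receptor found on NK cells, had 0 counts in all 7 NSG samples, 0, 0 and 1 counts in non-stroked and 1, 2 and 2 counts in stroked Rag2-/- samples. Klrb1c had 0 to 2 counts in non-stroked and 1 to 6 in stroked NSG samples, and 0 to 1 and 3 to 13 in Rag2-/- samples. Klrk1 had 0 to 3 counts in NSG samples and 4 to 7 in stroked Rag2-/- samples, with 0 in the non-stroked ones. Other members had another order. Klra8, an NK cell receptor of the Ly49 family, had 8, 23 and 9 counts in stroked NSG but 1, 2 and 1 counts in stroked Rag2-/- samples. Klrb1b had 14, 34 and 8 counts against 14, 14 and 16, and Cd244a 13, 27 and 16 counts against 17, 16 and 10.

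Innate inflammatory genes were called higher after stroke in both strains, and the sign of their median difference between strains depended on the samples and covariates used. Of 23 genes of disease-associated microglia, the state that surrounds lesions and plaques, 19 were called higher in NSG and 18 in Rag2-/- mice, where 5.01% and 4.22% of all genes were. Of these 23 genes 21 were higher in stroke without overlap in both strains (8.76% of all genes were), and the median difference was 0.22, with medians of 1.94 and 2.03 in the single responses. Among 37 interferon-stimulated genes 9 and 8 were called higher, 0 had an unadjusted p below 0.05 for the difference, and the median was −0.07. The 11 MHC class II genes had median responses of 2.12 in NSG and 2.13 in Rag2-/- mice, 22 complement genes of 2.27 and 1.84, and 28 chemokine genes of 2.22 and 2.46, with median differences of −0.30, 0.02 and −0.08.

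With Ddx3y as a covariate 34 of the 37 interferon-stimulated genes, 19 of the 23 microglial genes and 9 of the 11 MHC class II genes had a negative difference, with 4 interferon-stimulated genes lower at an unadjusted p below 0.05. Without the 5 samples above 100 CPM of Ttr 31 of 37 interferon-stimulated, 17 of 23 microglial and 10 of 11 MHC class II genes were positive. Over the alternatives other than leaving out 1 sample the median ran from −0.69 to 0.45 for interferon-stimulated genes, from −0.47 to 0.38 for microglial genes and from −1.01 to 0.74 for MHC class II genes. Median differences of other lists were 0.03 for homeostatic microglia genes, −0.15 for macrophage and monocyte genes, −0.10 for inflammatory cytokine genes, 0.11 for T cell genes, 0.05 for B and plasma cell genes, 0.19 for dendritic cell genes and −0.08 for neutrophil and mast cell genes. The median of macrophage and monocyte genes ran from −0.82 to 0.14 over the same alternatives.

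Single members stood out from these groups. Serpina3n, an astrocyte protease inhibitor that marks reactive astrocytes, lay at 42.2 to 59.2 CPM in non-stroked NSG but 11.8 to 16.3 CPM in non-stroked Rag2-/- samples, and the stroked samples overlapped at 108 to 227 and 116 to 203 CPM. Its log2 difference was −1.84 (edgeR adjusted p = 0.485), and the complement gene C4b had the same order with −1.43 (edgeR adjusted p = 0.531). Cd14, a co-receptor for bacterial lipopolysaccharide, rose in both strains, with a difference of 1.09 (edgeR adjusted p = 0.520), and the difference of Nfkbia, the inhibitor of NF-κB that is itself its target, was 0.84 (edgeR adjusted p = 0.485). Over all 31 reactive astrocyte genes the median was −0.05.

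No class I presentation gene was called for the difference between the strains. Of 16 genes 14 had a positive difference, 2 with an unadjusted p below 0.05 (4.22% of all genes were higher at it), and the median was 0.33. In NSG mice 12 were called higher after stroke and in Rag2-/- mice 9, where 5.01% and 4.22% of all genes were. H2-T23, a non-classical class I gene, lay at 1.29 to 1.79 CPM in non-stroked and 2.81 to 3.70 CPM in stroked NSG samples, but at 10.9 to 12.4 and 13.3 to 16.4 CPM in Rag2-/- samples (log2 difference 0.90, edgeR adjusted p = 0.498). H2-K1 (0.56) and B2m (0.46), the classical heavy chain and its light chain, had log2 differences of −1.60 and −0.79 between non-stroked NSG and Rag2-/- mice. NOD and C57BL/6 mice carry different class I alleles and the genes are close paralogs, so the counts of single H2 genes are uncertain between strains. With Ddx3y as a covariate 5 of the 16 differences were positive, and without the Ttr samples 15.

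The direction of the vessel genes depended on the samples and covariates used. Of 48 angiogenesis and vessel genes 4 were higher and 1 was lower at an unadjusted p below 0.05 (4.22% and 5.17% of all genes were), with a median of 0.15. Without stroked NSG sample 2 there were 4 higher and 6 lower with a median of −0.02, and with Ddx3y as a covariate 4 higher and 8 lower with 38 of 48 negative. Without the Ttr samples 36 of 48 were positive. Vegfa, the main growth factor of vessels, lay at 69.1 to 79.9 CPM in non-stroked and 66.9 to 94.2 CPM in stroked NSG samples, which overlapped, and at 79.3 to 81.5 and 55.7 to 66.6 CPM in Rag2-/- samples, which did not. Its log2 difference was 0.57 (SE 0.143, 95% interval 0.28 to 0.87, edgeR adjusted p = 0.303). Apln, a ligand secreted by sprouting endothelial tips, had 0.80, Cldn5, a tight junction protein of the blood-brain barrier, 0.88, and Vegfd, a growth factor of lymph vessels, −1.25. In the samples with Ddx3y alone Vegfa was at 0.23 and Cldn5 at −0.34.

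Of 7 growth-associated neuron genes tested 5 had a positive and 2 a negative difference, with a median of 0.77. At an unadjusted p below 0.05 there were 4, all higher (4.22% of all genes were). Bdnf, the neurotrophin, had a difference of 0.97, Nptx2, a synaptic pentraxin, 0.95, Vgf, a precursor of secreted peptides, 0.77, and Crh, the corticotropin-releasing hormone, 1.19. Gap43, a protein of growth cones, had −0.08 and Sox11, a transcription factor, −0.33. The group shares members with the immediate early list, Bdnf and Nptx2 among them, and is not independent of it. The 10 pan-neuronal genes had a median of 0.22 and the 13 excitatory and layer markers of 0.05. Over all 42 neuron genes tested the median was 0.15, with 4 higher and 1 lower at an unadjusted p below 0.05. With Ddx3y as a covariate 17 of the 42 were higher at it and 0 lower, and 29 were positive. Over the alternatives other than leaving out 1 sample the median ran from −0.05 to 0.51. In the samples with Ddx3y alone Bdnf was at 0.34, Nptx2 at 0.81, Vgf at 0.24 and Crh at 0.03.

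Scar genes were called higher in both strains, and the sign of their median difference depended on the samples used. Of 65 scar and extracellular matrix genes 24 were called higher in NSG and 20 in Rag2-/- mice, where 5.01% and 4.22% of all genes were, and the median difference was 0.01. Stroked NSG sample 2 stood apart, with 15267 counts of the collagen gene Col1a1 against 1373 and 1990 in the other stroked NSG samples and 2350 to 3213 in the stroked Rag2-/- samples. Without it 51 of 65 differences were negative, 6 were lower at an unadjusted p below 0.05 and the median was −0.38. Without the Ttr samples 48 of 65 were positive and the median was 0.46. Smad7, an inhibitor of TGF-β signalling, was the only one that moved in opposite directions without overlap, at 25.4 to 36.5 and 38.1 to 44 CPM in NSG and 30.1 to 34.3 and 26.3 to 30.0 CPM in Rag2-/- samples (log2 difference 0.58, edgeR adjusted p = 0.469). The fractalkine gene Cx3cl1, made by neurons, had a difference of 0.48 (edgeR adjusted p = 0.469). Of the 10 genes of cholesterol synthesis 9 were lower in stroke without overlap in both strains (4.78% of all genes were), with a median of −0.52 in each. The median difference was 0.02 for oligodendrocyte genes, 0.00 for cell cycle genes and −0.37 for subcortical genes.

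**Figure D5:**
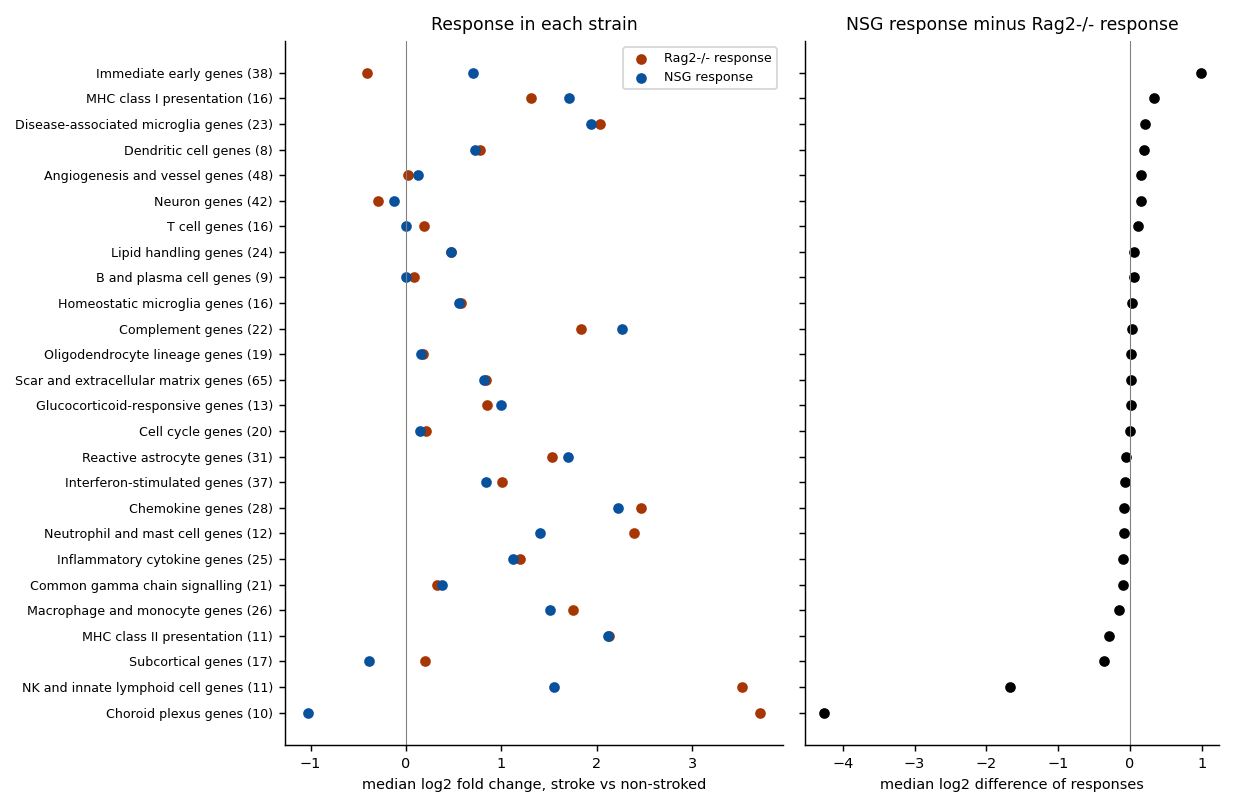
Median log2 stroke response over the tested genes of each list (number in brackets) in Rag2-/- and NSG mice (left), and the median log2 difference of the responses (right). The immediate early genes are the list with a negative median in Rag2-/- mice (−0.41) and a positive one in NSG mice (0.71), and the choroid plexus and NK lists rest on single samples or few counts. NK genes could pass the filter on low counts through the stroked Rag2-/- samples alone, which favours a negative median, so that point is no result.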

How the data were processed

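The authors deposited raw read counts per Ensembl gene for 29 brain samples. Per the study's methods, stranded polyA libraries were aligned and counted at a sequencing core. The aligner, the counter and the genome build are not given in the sources used here. Names and positions came from GENCODE M21 (GRCm38), which held 25712 of the 25746 IDs.

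Groups were taken from genotype and treatment labels. Counts were fitted in R 4.3.3 with edgeR 4.0.16 (TMM, filterByExpr by group, quasi-likelihood F test), in 1 fit of 8 groups, 29 samples and 17031 genes. The responses, their difference, and NSG against Rag2-/- with and without stroke were contrasts of this fit, each adjusted by Benjamini-Hochberg. The SE is the absolute log2 fold change divided by the square root of F, and intervals are at 95%. CPM used TMM-adjusted library sizes. The text names the 12 genes per direction with the smallest p, an absolute log2 difference above 1 and a mean of at least 1 CPM, list members with the extreme values or a needed role, and the strain and sex chromosome genes as checks. The values of 1 list member are not reported here. The members and lists were chosen with earlier results of these data known.

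Alternatives were DESeq2 1.42.0, RLE, no filter, at least 1 CPM, other sets of samples, covariates, a replicate block and leaving out each sample. The alternatives on Ttr and on samples with Ddx3y were chosen after seeing the data. Replicate numbers did not pair the samples (15 pairs, correlation −0.227 to 0.229). The fit was also run on simulated counts with a common mean per gene in all groups and some genes changed in stroked NSG samples alone. These counts held no shared stroke response, strain difference or sex imbalance, and no result here rests on them.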

Additional observations from a re-analysis of the deposited data

Results flagged for a closer look

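In non-stroked NSG mice, the only group of 4 samples, 1 sample stood apart from the other 3 by Dixon's test for 5 of 88 values tested (60 genes and 28 list sums), and chance gives about 1 in 20. Dusp6 was at 55.6 CPM in sample 2, with 37.0 to 37.6 CPM in the others. Rps6ka6 was at 6.43 CPM and H2-T23 at 1.79 CPM in sample 3, and Cldn5 at 24.1 CPM in sample 1. The summed disease-associated microglia genes were at 2806 CPM in sample 4, with 2593 to 2617 CPM in the others.

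Of 60 named genes 11 moved in opposite directions without overlap in the strains. Every stroked sample lay on one side of the non-stroked samples in NSG mice and on the opposite side in Rag2-/- mice. Over all genes tested 29 (0.17%) lay higher with stroke in NSG mice and lower with stroke in Rag2-/- mice in this way. The share of the reverse order is not given here. The 60 include the 12 genes per direction with the smallest p of this contrast, so the count is no separate support. The log2 difference of the responses was 1.36 for Col26a1, 1.44 for Dusp6, 1.5 for Gpr3, 1.78 for Trib1, 2.21 for Nr4a1, 2.21 for Dusp1, 2.82 for Arc, 1.83 for Junb, 0.58 for Smad7 and 0.83 for Ier5. It was −1.08 for Rps6ka6, which lay lower in stroke in NSG mice. None of these differences passed edgeR's adjusted p over all genes.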

How the results depend on the processing

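The difference of the responses was called for 0 genes in 21 of 27 alternatives, with 455 to 3217 genes at an unadjusted p below 0.05. DESeq2 called 14 genes, the fit without the 5 samples above 100 CPM of Ttr called 1, and leaving out 1 sample gave 0 to 21. For the single responses and the direct comparisons the counts moved as follows. The 933 calls in NSG mice became 3726 with no minimum fold, 550 with Ddx3y as a covariate (375 in the 4 groups alone), 492 without the Ttr samples, 77 in samples with Ddx3y alone and 680 to 1256 when 1 sample was left out. The 737 calls in Rag2-/- mice became 1402 with no minimum fold, 305 without the Ttr samples, 0 by edgeR in samples with Ddx3y alone (1422 at an unadjusted p below 0.05; DESeq2 was not run on these samples) and 380 to 798 with 1 sample left out, the lowest without stroked sample 1 and 454, 467 and 460 without non-stroked samples 1, 2 and 4. The 469 calls between stroked strains became 1438 with no minimum fold, 237 at a mean of at least 1 CPM, 288 with the replicate block, 212 in samples with Ddx3y alone, 309 with Ddx3y in the 4 groups alone and 345 to 567 with 1 sample left out. The 477 calls between non-stroked strains became 1078 with no minimum fold, 251 at a mean of at least 1 CPM, 253 without the Ttr samples, 250 in samples with Ddx3y alone and 362 to 509 with 1 sample left out. These fits differ in threshold, genes tested or samples, and otherwise the cause was not tested.

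The replicate block rests on title numbers that do not pair the samples. It left 0 calls for the difference, 825 genes at an unadjusted p below 0.05 and a median of 0.86 for the immediate early genes. Of 1558 values of 60 named genes under the alternatives, 1521 kept their direction and side of the threshold, 32 passed it newly and 5 changed sign. Those were Cldn5 at −0.34 (samples with Ddx3y alone), Atf3 at −0.76 (Ddx3y as a covariate), and Ttr at 1.31, 0.29 and 0.12 (without the Ttr samples, in samples with Ddx3y alone, and with Ttr as a covariate), and the cause was not tested. The immediate early median ran from 0.80 to 1.44. Fits with 1 sample left in a group assume that it varies like the others. Depth limits the NK genes and Il15, with few counts each.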
